A study of Mus musculus with 4 samples.

Results

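The 91 genes described here belong to families that write, erase or read chemical marks on chromatin, or that move nucleosomes. They were chosen by name: a gene was taken when its single gene symbol in the platform annotation began with one of the family prefixes Hdac, Kdm, Kmt, Smarc, Chd, Setd, Dnmt, Tet, Ezh, Brd, Phf, Sirt, Kat, Arid, Ing, Jmjd or Cbx, with a number following where the prefix alone is ambiguous. They are 91 of the 6404 genes with values, and 154 probe sets read them. The rule uses names only. The values of all 91 genes were used, and no filter on low values was applied.

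RNA came from EML cells, a mouse blood progenitor line that is normally kept in stem cell factor (SCF), which activates the receptor tyrosine kinase KIT. Each line carried 1 of 2 KIT mutants found in mastocytosis: D816V, in the phosphotransferase (kinase) domain, or Del417-419insY, in the extracellular domain. The 4 groups were D816V with SCF (250 ng/mL, 48 h), Del417-419insY with SCF at that dose and time, D816V without SCF and Del417-419insY without SCF, and each group was 1 Affymetrix array. All 4 cultures came from cells that had been infected with retrovirus carrying a KIT construct, selected with geneticin, grown on without added factor until they were autonomous, and sorted for KIT, and no culture without a KIT mutant was analysed here. Each mutant is thus 1 selected population, and the sources used here do not state how long the cultures without SCF ran.

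Chromatin regulators act in sets. Methyltransferases and acetyltransferases write marks on histone tails, demethylases and deacetylases remove them, and proteins with bromodomains, chromodomains or PHD fingers bind the marked tails. ATP-driven remodellers such as the BAF, ISWI and CHD complexes slide or evict nucleosomes, DNMT enzymes methylate DNA and TET enzymes oxidise that methyl group. In human blood disease several of these genes, among them TET2, DNMT3A and KMT2A, are recurrently altered, and TET2 mutations occur beside KIT mutations in systemic mastocytosis.

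Each log2 value is given relative to a zero of its own probe set. A difference between arrays can be read, while the level of one gene cannot be set against that of another and no gene can be called present or absent. For the same reason the labelled cell type could not be checked by the presence of its markers. Array medians over all probe sets were -0.20 and -0.10 for D816V with and without SCF, and -0.05 and -0.02 for Del417-419insY with and without SCF. Two-sided tests came from 1 limma fit over all genes with genotype and SCF as additive terms, which compares the D816V arrays of both conditions with the Del417-419insY arrays of both. Where a pair of values is given for a line, the one with SCF stands before the one without SCF. A gene was called at a Benjamini-Hochberg adjusted p under 0.05. The fit has 1 residual degree of freedom per gene and no repeat culture, so its p-values cover neither the spread between cultures nor that between transduced populations.

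Chromatin genes were mostly lower in D816V cells than in Del417-419insY cells, by small amounts. The limma fit called 35 of the 91 lower and 4 higher, 38.5% and 4.4% of them. Over all 6404 genes it called 24.7% lower and 17.9% higher. The share called in either direction was 42.9% among the chromatin genes and 42.6% among all genes, while the balance of directions differed between them. Their median difference, D816V minus Del417-419insY, was -0.37 on the log2 scale with SCF and -0.27 without SCF, where all genes had medians of -0.14 and -0.08. Both D816V arrays lay below both Del417-419insY arrays for 59 of the 91 genes, against 40.7% of all genes, and above both for 9, against 29.1%. In both conditions 65 genes had a lower value in D816V cells, against 49.3% of all genes, and 15 a higher one, against 35.6%. In RNA from whole cultures, fewer cells of a type and less RNA per cell cannot be told apart.

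**Figure D1:**
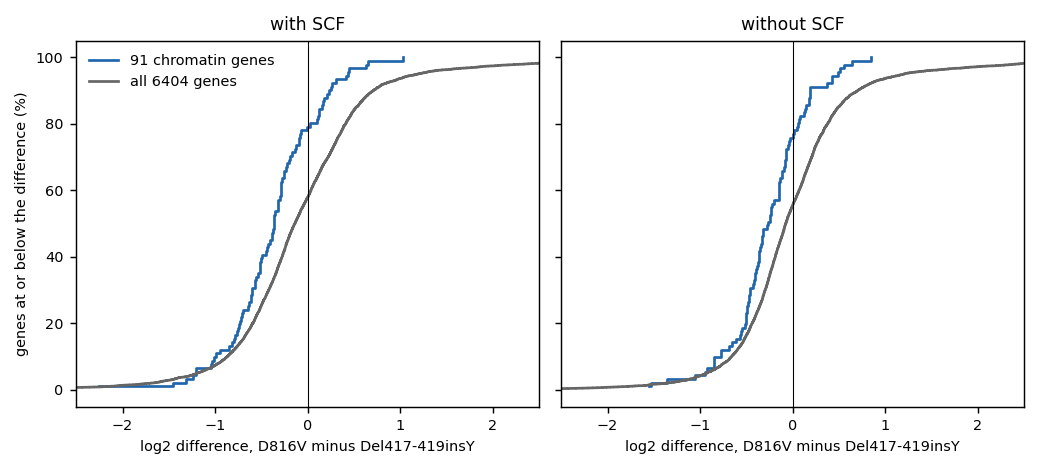
Cumulative share of genes (y, percent) at or below a given log2 difference between D816V and Del417-419insY cells (x), with SCF on the left and without SCF on the right, for the 91 chromatin genes (blue) and all 6404 genes (grey). The blue curve lies left of the grey one through the middle of both panels (medians -0.37 against -0.14 with SCF, and -0.27 against -0.08 without SCF) and ends far short of the grey one on the right.

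The array scale bears on this balance, because the median of all genes itself was -0.10 for the mean of both conditions. Centring each array on its median moved the median of all genes to 0.02 and that of the chromatin genes to -0.22, with 30 called lower and 9 higher. After cyclic loess the medians were 0.04 and -0.20, with 24 and 9 calls, and after quantile normalization 0.002 and -0.24, with 31 and 7 calls. Over all genes the same 3 scalings gave 1302 lower and 1720 higher, 1263 and 1628, and 1387 and 1526. The chromatin genes thus had more lower than higher calls under each of the 3 scalings, in which all genes had more higher calls.

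Large differences were rare. The SD of the mean genotype difference across genes was 0.45 for the chromatin genes and 0.84 for all genes. Without SCF 4 chromatin genes were 2-fold or more lower in D816V cells and 0 higher, against 4.2% and 6.29% of all genes. With SCF 9 were lower and 1 was higher, against 7.42% and 6.34%. In both conditions 4 were 2-fold or more lower, namely Kdm7a, Dnmt3b, Kdm5b and Hdac4, a share of 4.4% against 3.79% of all genes, and 0 were higher, against 5.15%. At 1.5-fold the genes past the limit in both conditions were 12 lower, against 10.9% of all genes, and 1 higher, against 9.6%. With SCF alone 28 were 1.5-fold or more lower, against 20.4% of all genes, and 3 higher, against 13.2%; without SCF 14 were lower, against 12.6%, and 2 higher, against 12.2%. The chromatin genes therefore held about the background share of genes with a 2-fold lower level and few with a 2-fold higher one.

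**Figure D2:**
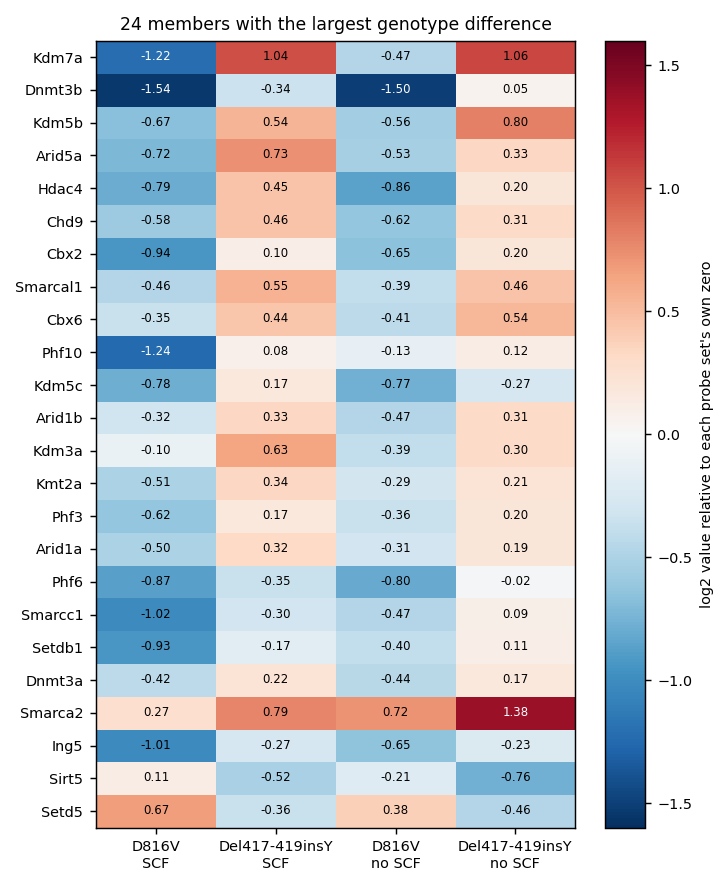
Log2 values relative to each probe set's own zero for the 24 chromatin genes with the largest mean genotype difference, 1 column per array and the lowest difference at the top. In the upper 22 rows the D816V columns are lower than the Del417-419insY columns of the same condition, from Kdm7a to Ing5, and in the last 2 rows, Sirt5 and Setd5, they are higher; values are comparable along a row only.

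Promoter sequence was looked at because many of these genes differed in 1 direction. RefSeq promoter windows of assembly GRCm38.p6, from 250 bases before to 50 after a gene start, were matched by symbol for 75 of the 91 genes. The median ratio of observed to expected CpG was 0.92 for these 75 genes, 0.89 for the 30 of them called lower, 0.72 for the 4 called higher and 0.82 for 5248 genes of the array table, taking the highest window of each gene. The windows of the members with the largest lower and higher differences are shown to let the 2 directions be compared, 5′ to 3′ on the strand of the gene, with each CpG in capitals. They lie at chr6:39206724-39207023 on the minus strand (Kdm7a), chr2:153649199-153649498 on the plus strand (Dnmt3b), chr6:113104685-113104984 on the plus strand (Setd5) and chr13:43365285-43365584 on the plus strand (Sirt5).
Kdm7a: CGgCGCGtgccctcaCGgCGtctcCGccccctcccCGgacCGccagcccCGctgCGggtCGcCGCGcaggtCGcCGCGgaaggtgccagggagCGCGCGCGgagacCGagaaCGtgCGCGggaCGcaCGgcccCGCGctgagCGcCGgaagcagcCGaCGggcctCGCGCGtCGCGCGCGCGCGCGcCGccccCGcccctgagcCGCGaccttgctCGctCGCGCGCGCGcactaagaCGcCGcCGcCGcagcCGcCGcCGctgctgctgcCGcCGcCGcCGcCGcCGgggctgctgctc
Dnmt3b: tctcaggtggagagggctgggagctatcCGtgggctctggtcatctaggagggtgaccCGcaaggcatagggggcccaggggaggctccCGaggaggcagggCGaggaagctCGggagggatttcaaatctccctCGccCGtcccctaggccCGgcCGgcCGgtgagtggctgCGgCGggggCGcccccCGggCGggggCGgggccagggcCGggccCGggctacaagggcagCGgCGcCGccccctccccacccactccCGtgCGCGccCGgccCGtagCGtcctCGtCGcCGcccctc
Setd5: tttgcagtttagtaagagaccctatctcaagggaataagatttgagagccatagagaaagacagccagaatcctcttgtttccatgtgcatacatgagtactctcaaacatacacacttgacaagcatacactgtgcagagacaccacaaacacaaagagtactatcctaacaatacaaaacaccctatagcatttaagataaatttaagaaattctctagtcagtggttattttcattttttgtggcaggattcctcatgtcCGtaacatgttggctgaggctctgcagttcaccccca
Sirt5: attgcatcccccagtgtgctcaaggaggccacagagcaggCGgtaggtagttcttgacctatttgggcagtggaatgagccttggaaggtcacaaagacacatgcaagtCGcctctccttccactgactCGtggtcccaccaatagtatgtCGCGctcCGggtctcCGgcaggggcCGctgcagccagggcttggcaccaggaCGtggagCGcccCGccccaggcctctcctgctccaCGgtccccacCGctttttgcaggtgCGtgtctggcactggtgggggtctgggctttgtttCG

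The windows of Kdm7a and Dnmt3b hold 65 and 30 CpG, and those of Setd5 and Sirt5 hold 1 and 15. In the Setd5 window the bases before the start end in a T-rich run and cag, as an intron does before an exon. Whether this start is a promoter of Setd5 was not tested, so its CpG count may not be that of a promoter. The Setd5 ratio also enters the median of the 4 genes called higher. The GC contents of the 4 windows were 82.7%, 76%, 39.7% and 62%, in the same order. Of the other genes called higher, Setd4 had an observed to expected ratio of 0.917 and Kmt5a one of up to 1.05, beside 0.0861 for Setd5 and 0.520 for Sirt5, so these 4 windows do not describe a class. Short motifs were searched on both strands: TTCNNNGAA, the palindrome bound by STAT factors, was in 9 of 75 member genes (12%) and in 8.16% of the 5248. CCGGAAGT, an ETS site, was in 4 (5.33% against 9.81%), and the E2F sites TTTGGCGC and TTTCGCGC in 2 each (2.67% against 1.47% and 0.953%). Of the 30 genes called lower, 3 held the STAT motif and 0 any of the other motifs named. These matches describe letters in these windows only.

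Among genes of DNA methylation, 3 of 4 were called lower in D816V cells, where 24.7% of all genes were; with 4 genes no share is read from this. Dnmt3b and Dnmt3a encode the enzymes that set new DNA methylation. Dnmt3b stood at -1.54 with SCF and -1.50 without SCF in D816V cells, against -0.34 and 0.05 in Del417-419insY cells. Both D816V values lay more than 1 log2 unit below either Del417-419insY value, a mean difference of -1.38 (SE 0.14, limma adjusted p = 0.0024), and its 2 probe sets gave -1.31 and -1.45. Dnmt3a was at -0.42 and -0.44 in D816V cells and at 0.22 and 0.17 in Del417-419insY cells, a difference of -0.63 (SE 0.11). Tet2, which encodes an oxidase of methylated cytosine, had values of -0.28 with SCF and 0.21 without SCF in D816V cells, and 0.23 and 0.68 in Del417-419insY cells. The D816V array without SCF and the Del417-419insY array with SCF were nearly equal, and the difference of -0.49 (SE 0.11) was about the same in both conditions. Dnmt1, the maintenance methyltransferase, had a difference of -0.26 and did not pass the limma test (adjusted p = 0.125).

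The prefixes Kdm and Jmjd gave 16 genes, grouped here as demethylases by name only. Of these 6 (37.5%) were called lower and 0 higher, against 24.7% and 17.9% of all genes, with a median of -0.35. After centring, cyclic loess and quantile normalization 5 (31.25%) were lower each time, against 20.3%, 19.7% and 21.7% of all genes. Higher calls were then 3, 1 and 2 (18.75%, 6.25% and 12.5%), against 26.9%, 25.4% and 23.8%. The largest difference of all 91 genes was that of Kdm7a, whose product removes repressive methylation from histone H3. It stood at -1.22 with SCF and -0.47 without SCF in D816V cells, against 1.04 and 1.06 in Del417-419insY cells. The D816V arrays were far below the others and also differed from each other, and the mean difference was -1.90 (SE 0.20, limma adjusted p = 0.0027), a 3.72-fold lower level. The 2 probe sets of Kdm7a gave -1.57 and -2.22. Kdm5b, a demethylase of the active mark at promoters, was at -0.67 and -0.56 in D816V cells and at 0.54 and 0.80 in Del417-419insY cells, 2.44-fold lower in D816V (difference -1.28, SE 0.12), with -0.88 and -1.69 for its 2 probe sets. Its X-linked relative Kdm5c was at -0.78 and -0.77 in D816V cells and at 0.17 and -0.27 in Del417-419insY cells, a difference of -0.72. The Y-linked copy Kdm5d, at -0.30, did not pass, and neither did Kdm5a, at 0.35, so the KDM5 genes did not share 1 direction.

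Kdm3a, a demethylase of repressive methylation whose gene is known to respond to hypoxia, was at -0.10 with SCF and -0.39 without SCF in D816V cells, against 0.63 and 0.30 in Del417-419insY cells, a difference of -0.71 with no overlap. Kdm2a, a demethylase that binds unmethylated CpG, was at -0.52 and Jmjd1c, a relative of Kdm3a, at -0.42; all 3 were called. Kdm6b, one of the pair of enzymes that remove the Polycomb mark, was at -0.99 with SCF and -0.09 without SCF and did not pass, and its partner Kdm6a was at -0.29 and -0.08. Jmjd8, Kdm1a and Jmjd4 had mean differences of -0.41, -0.27 and -0.16, and Jmjd6, Kdm1b and Kdm8 of 0.11, 0.29 and 0.39, none of them called. Kdm1a encodes LSD1, the demethylase of the CoREST complex.

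Of 13 methyltransferase genes 4 (30.8%) were called lower and 3 (23.1%) higher, near the 24.7% and 17.9% of all genes. Setd5, a SET domain gene, stood at 0.67 with SCF and 0.38 without SCF in D816V cells, against -0.36 and -0.46 in Del417-419insY cells. Both D816V arrays lay above both Del417-419insY arrays, and the mean difference was 0.94 (SE 0.12, limma adjusted p = 0.0049), a 1.92-fold higher level. Setd4 was higher by 0.53 and Kmt5a, the enzyme that adds the first methyl group to histone H4 in the cell cycle, by 0.41. In the other direction was Kmt2a, the MLL gene of leukaemia translocations, at -0.51 with SCF and -0.29 without SCF in D816V cells, against 0.34 and 0.21 in Del417-419insY cells, a difference of -0.68. Setdb1, which silences retroelements, was at -0.93 with SCF and -0.40 without SCF in D816V cells, against -0.17 and 0.11 in Del417-419insY cells, a difference of -0.63. For both genes the D816V arrays lay below the others. The call of Setdb1 was lost in the fit without the SCF term. Setd2, the enzyme for trimethylation along transcribed genes, was at -0.43 and Kmt2d, an enhancer methyltransferase, at -0.42, both called lower. The other 6 did not pass: Kmt5b at -0.43, Kmt2c at -0.26, Kmt2e at -0.21, the PRC2 enzyme gene Ezh1 at -0.11, Setd6 at 0.01 and Setd3, which encodes a methyltransferase of actin, at 0.21.

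Of the 3 acetyltransferase and 6 deacetylase genes 1 was called lower and 1 higher, beside 24.7% and 17.9% of all genes. With so few genes no share is read from this. None of the 3 measured Kat genes was called. Kat14, a subunit of the ATAC complex, was at -0.40 with SCF and -0.56 without SCF in D816V cells, against -0.04 and -0.19 in Del417-419insY cells. The difference of -0.37 did not pass (limma adjusted p = 0.052). It passed with a trend of the prior on the mean relative value (limma adjusted p = 0.0497) and with the highest-mean probe set (0.0455). Neither alternative rests on brightness, since each value is relative to its probe set's own zero. Kat5, the enzyme of the TIP60 complex, was at -0.28 and Kat8 at -0.19. Hdac4, a class IIa deacetylase that shuttles between nucleus and cytoplasm, was the gene called lower. Its values were -0.79 with SCF and -0.86 without SCF in D816V cells, against 0.45 and 0.20 in Del417-419insY cells, a difference of -1.15 (SE 0.12, limma adjusted p = 0.0028), with -0.94 and -1.36 for its 2 probe sets. The groups were about 1 log2 unit apart, while Hdac7, of the same class, differed by 0.06. Sirt5, a mitochondrial desuccinylase, was at 0.11 and -0.21 in D816V cells and at -0.52 and -0.76 in Del417-419insY cells, higher by 0.59 (SE 0.12). The call of Sirt5 was lost in the fit without the SCF term. Hdac6, Sirt3 and Sirt2 had differences of -0.34, -0.24 and 0.06 and did not pass.

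**Figure D3:**
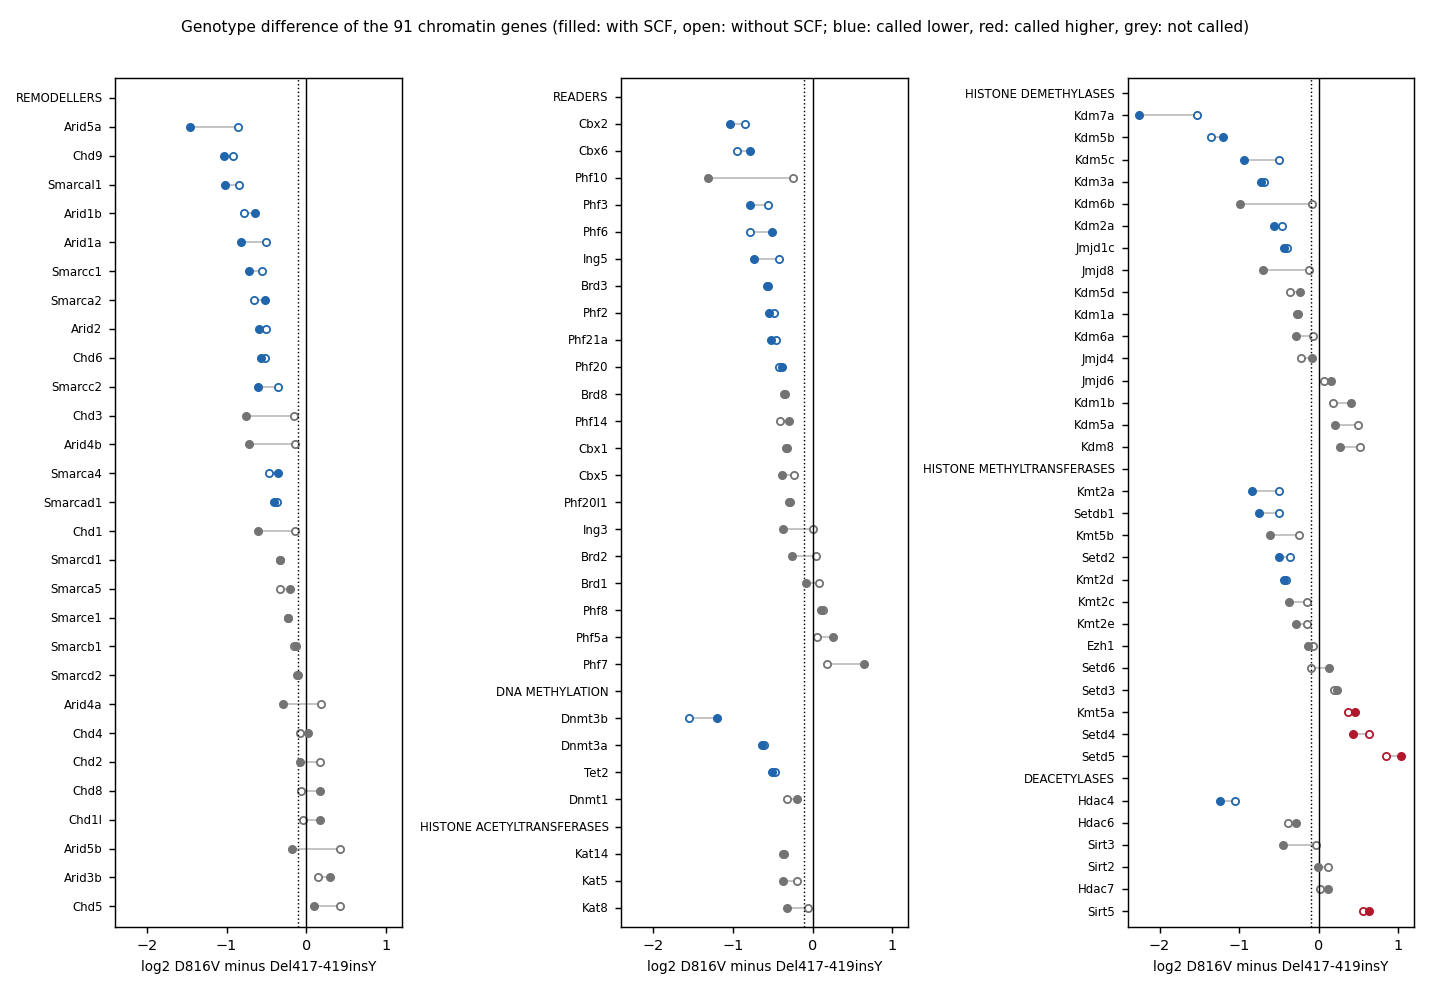
Log2 difference D816V minus Del417-419insY (x) of each of the 91 genes by role, with SCF (filled) and without SCF (open), in blue where called lower, red where called higher and grey where not called; the left panel holds the remodellers. The dotted line marks the median of all genes, -0.10; blue genes occur in every role except the histone acetyltransferases, and the 4 red genes are Setd5, Sirt5, Setd4 and Kmt5a.

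Among the 21 genes named for bromodomains, PHD fingers, chromodomains or the ING family, 9 (42.9%) were called lower and 0 higher. Over all genes the shares were 24.7% and 17.9%, and the median of the 21 was -0.35. These counts depended on the scaling. After centring, cyclic loess and quantile normalization 9, 4 and 10 (42.9%, 19.0% and 47.6%) were lower, against 20.3%, 19.7% and 21.7% of all genes. Higher calls were then 1, 3 and 1 (4.76%, 14.3% and 4.76%), against 26.9%, 25.4% and 23.8%. Both measured Polycomb chromodomain genes were among them. Cbx2 stood at -0.94 with SCF and -0.65 without SCF in D816V cells, against 0.10 and 0.20 in Del417-419insY cells, a difference of -0.95 (SE 0.12). Cbx6 was at -0.35 and -0.41 in D816V cells and at 0.44 and 0.54 in Del417-419insY cells, a difference of -0.87 (SE 0.12). The heterochromatin protein genes Cbx1 and Cbx5 had differences of -0.33 and -0.31 and did not pass, and the 4 probe sets of Cbx5 ran from -0.53 to 0.16.

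Phf3, a PHD finger gene, was at -0.62 with SCF and -0.36 without SCF in D816V cells, against 0.17 and 0.20 in Del417-419insY cells, a difference of -0.67. Phf6, mutated in human T cell leukaemia, was at -0.87 with SCF and -0.80 without SCF in D816V cells, against -0.35 and -0.02 in Del417-419insY cells, a difference of -0.65. Ing5, a subunit of acetyltransferase complexes, was at -1.01 with SCF and -0.65 without SCF in D816V cells, against -0.27 and -0.23 in Del417-419insY cells, a difference of -0.58. In these 3 genes, all called, both D816V arrays were the lowest. The calls of Phf6 and Ing5 were lost after cyclic loess. That of Ing5 was also lost without the SCF term, and that of Phf6 with the highest-mean probe set. Also called were the BET gene Brd3 at -0.56, Phf2 at -0.51, the CoREST subunit gene Phf21a at -0.49 and Phf20 at -0.41. Phf10, a subunit of the PBAF remodeller, was at -1.24 with SCF and -0.13 without SCF in D816V cells, against 0.08 and 0.12 in Del417-419insY cells. In these means of 2 probe sets only the D816V array with SCF stood apart. The mean difference of -0.78 did not pass (SE 0.26, limma adjusted p = 0.063). It passed in limma after centring (adjusted p = 0.024), after quantile normalization (0.0499) and with a trend of the prior on the mean relative value (0.0493). After cyclic loess it did not pass. The 2 probe sets of Phf10 gave -1.24 and -0.33, and without SCF they differed in sign, at -0.665 and 0.166. Of the rest, Brd8, Phf14, Phf20l1, Ing3, Brd2 and Brd1 lay between -0.35 and -0.004 and Phf8, Phf5a and Phf7 between 0.12 and 0.42, none called. Phf5a encodes a splicing factor subunit, so the prefix does not always name a chromatin protein.

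The 28 genes with the prefixes Smarc, Chd or Arid, grouped here as remodellers, gave 12 (42.9%) called lower and 0 higher. Over all genes the shares were 24.7% and 17.9%, and the median of the 28 was -0.38. The grouping is by name only: Arid5a, 1 of the 12, encodes a protein that binds mRNA. After centring, cyclic loess and quantile normalization 10, 8 and 9 (35.7%, 28.6% and 32.1%) were lower, against 20.3%, 19.7% and 21.7% of all genes. Higher calls were then 1, 1 and 0, against 26.9%, 25.4% and 23.8%. All 11 Smarc genes were lower in D816V cells in both conditions on the deposited scale, and 6 of them (54.5%) were called lower. With SCF, Smarcb1 and Smarcd2 differed by -0.129 and -0.098. The array medians with SCF, -0.20 for D816V and -0.05 for Del417-419insY, were farther apart than that. After centring, Smarcb1 and Smarcd2 were thus no longer below 0 with SCF. The subunits of the related complexes BAF and PBAF, with the ATPase genes Smarca4 and Smarca2 among them, can be followed through 12 of the 91 genes. This list was drawn up after the values were seen. In all 12 the difference was below 0 in both conditions on the deposited scale, as it was for 49.3% of all genes. Of the 12, 7 (58.3%) were called lower, against 24.7% of all genes. Smarcb1 and Smarcd2 are among the 12, so the shared sign did not hold after centring either. Counts under the other scalings are not given for this list. Not every subunit was lower on the deposited scale. Of 8 measured BAF subunits without these prefixes 2 (25%) were called lower. Of those 8 genes, 6 were below 0 in both conditions and 1, Bcl7b, above 0 in both. Arid1b, one of the alternative subunits that define BAF, was at -0.32 with SCF and -0.47 without SCF in D816V cells, against 0.33 and 0.31 in Del417-419insY cells, a difference of -0.71. Its counterpart Arid1a was at -0.50 and -0.31 in D816V cells and at 0.32 and 0.19 in Del417-419insY cells, a difference of -0.66, and Arid2 of PBAF differed by -0.55. For these 3 genes the D816V and Del417-419insY arrays did not overlap.

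The core scaffold gene Smarcc1 was at -1.02 with SCF and -0.47 without SCF in D816V cells, against -0.30 and 0.09 in Del417-419insY cells, a difference of -0.64, and its relative Smarcc2 differed by -0.48. The ATPase gene Smarca2 was at 0.27 with SCF and 0.72 without SCF in D816V cells, against 0.79 and 1.38 in Del417-419insY cells, a difference of -0.59, and Smarca4 differed by -0.41. All 4 were called; for Smarcc1 and Smarca2 the D816V array without SCF was the nearest to the Del417-419insY array with SCF. The calls of Smarcc1 and Smarca2 were lost in the fit without the SCF term. Smarcd1, Smarce1, Smarcb1 and Smarcd2, at -0.33, -0.23, -0.14 and -0.11, and Phf10 were the 5 that did not pass. Outside BAF, Smarcal1, an annealing helicase of stalled replication forks, was at -0.46 and -0.39 in D816V cells and at 0.55 and 0.46 in Del417-419insY cells, a difference of -0.93. Smarcad1 was called at -0.39, and Smarca5, the ISWI ATPase, was at -0.27 and did not pass.

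Arid5a, whose product binds and stabilises inflammatory mRNAs, stood at -0.72 with SCF and -0.53 without SCF in D816V cells, against 0.73 and 0.33 in Del417-419insY cells, a difference of -1.16 (SE 0.17, limma adjusted p = 0.0079). The groups were apart in both conditions and farther apart with SCF. Its relative Arid5b had differences of -0.17 with SCF and 0.43 without SCF and did not pass. Of the 9 Chd genes 2 were called. Chd9, a chromodomain helicase gene, was at -0.58 with SCF and -0.62 without SCF in D816V cells, against 0.46 and 0.31 in Del417-419insY cells, a difference of -0.98 with no overlap, and Chd6 differed by -0.54. Chd3, Arid4b and Chd1 were at -0.46, -0.43 and -0.37, and the remaining genes Arid4a, Chd4, Chd2, Chd8, Chd1l, Arid3b and Chd5 lay between -0.06 and 0.26. Chd3 and Chd4, ATPases of the NuRD complex, thus had values of -0.46 and -0.03.

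The 5 X-linked genes of the set are Hdac6, Kdm5c, Kdm6a, Phf6 and Phf8. They gave 2 lower calls (40.0%, against 24.7% of all genes) and a median of -0.34, the same as that of all 91.

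Several probe sets per gene allow a check within these arrays. Of the 91 genes 47 had 1 probe set and 44 more. Among the 35 genes called lower 20 had more than 1, and in all 20 every probe set had a mean difference below 0. The call rests on the mean of these probe sets, so their sign is a description. In 9 genes the probe sets had both signs, namely Brd1, Cbx5, Chd2, Chd4, Chd8, Ezh1, Hdac7, Kmt2c and Phf14, and none of these was called.

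**Figure D4:**
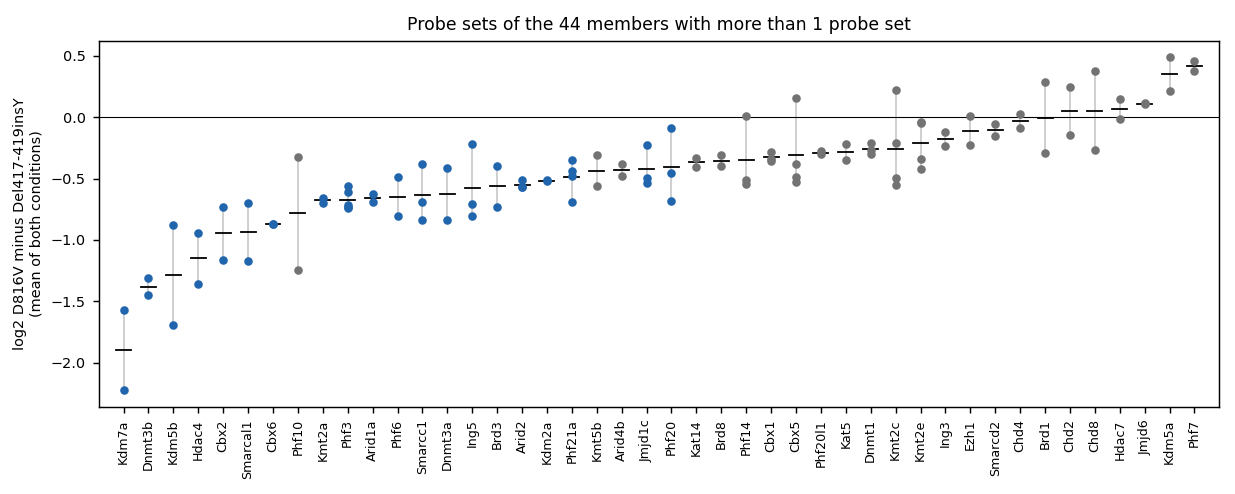
Mean log2 difference D816V minus Del417-419insY (y) of every probe set of the 44 chromatin genes with more than 1 (x), with a black bar at the mean of the gene and blue dots where the gene was called lower. All blue dots lie below 0, and the 2 probe sets of Kdm7a, at -1.57 and -2.22, are among the lowest.

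Other chromatin genes, whose names fall outside the prefixes, were counted from lists. Of 103 measured genes 30 (29.1%) were called lower and 5 (4.9%) higher in D816V cells, against 24.7% and 17.9% of all genes, with a median of -0.24. The counts of the single lists, of 5 to 15 genes each, stand beside the same shares of all genes. Polycomb partners gave 7 lower and 1 higher of 15, with the PRC1 genes Rnf2, Pcgf5 and Phc1 at -0.93, -0.92 and -0.90 and Phc3 at 0.64. Trithorax and COMPASS genes gave 4 lower of 10, with Rbbp5, a core COMPASS subunit, at -0.91. Other lysine methyltransferases gave 4 lower of 10, with Smyd3 at -0.77. Acetyltransferases and their adaptors gave 3 lower and 1 higher of 13, where the coactivator genes Ncoa1 and Ncoa2 were at -1.15 and -0.83 but Ncoa3 at 0.83. These coactivators of 1 family therefore had opposite directions.

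NuRD, CoREST, SIN3 and NCoR genes gave 2 in each direction of 10. Other BAF subunits gave 2 lower of 8, with Bcl7c at -0.90, INO80 and ISWI genes 2 lower of 15, DNA methylation readers 1 lower of 5, the maintenance cofactor gene Uhrf1 at -0.50, and histone chaperones 2 lower of 7. HMG and histone variant genes gave 3 lower of 5, with Hmga2, an architectural protein of fetal and stem cells, at -2.05 and the histone variant gene H3f3a at -1.02. Arginine methylation was the list with a median above 0 (0.29), and its single call was Padi4, which converts histone arginine to citrulline, at 3.34. Mast cell genes also differed between the same arrays: 12 of 14 measured markers (85.7%) were called higher in D816V cells, against 17.9% of all genes, and 1, Kit, lower, and their summed log2 values were 6.99 and 18.3 in D816V cells with and without SCF, against -18.1 and -13.4 in Del417-419insY cells. Cell cycle genes gave 4 (33.3%) lower and 0 higher of 12, against 24.7% and 17.9% of all genes, with a median of -0.26, and summed values of -3.98 and -3.03 in D816V cells with and without SCF, against -1.19 and 0.03 in Del417-419insY cells. Calls were 1 higher and 4 lower of 8 erythroid, 1 and 4 of 5 megakaryocyte, 1 and 2 of 7 granulocyte and monocyte, 1 and 1 of 2 lymphoid and 1 and 2 of 3 stem cell markers, lists too short to set against the shares of all genes. The part of these differences in the values of the chromatin genes was not tested.

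The SCF response varied less across these genes than the genotype difference, with SDs of 0.33 in D816V and 0.30 in Del417-419insY cells against 0.45 for the mean genotype difference. The limma fit called 0 of the 91 for SCF and 0 of all 6404 genes, 0% of them; at an unadjusted p under 0.05 it had 18 of the 91, against 18.5% of all genes, 7 of them higher and 11 lower with SCF, against 7.87% and 10.6%. In D816V cells 2 genes were 2-fold or more lower with SCF and 0 higher, against 1.31% and 0.328% of all genes, and in Del417-419insY cells 1 and 0, against 0.547% and 0.328%. At 1.5-fold 5 were lower and 2 higher in D816V cells, against 6.45% and 2.55%, and 4 and 1 in Del417-419insY cells, against 2.86% and 2.14%. The median response, SCF minus no SCF, was -0.04 in D816V cells and 0.08 in Del417-419insY cells, beside -0.05 and 0.03 for all genes. In both lines 34 genes were higher and 32 lower with SCF, against 32.3% and 33.2% of all genes, and in 25 the lines went opposite ways, against 34.3%. Since a comparison has 1 array on each side, single responses below are values without a test, and a difference in culture time between the arrays cannot be told apart from SCF.

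Setd3 had the largest response. It stood at -0.10 with SCF against 1.05 without SCF in D816V cells, and at -0.33 with SCF against 0.87 without SCF in Del417-419insY cells. Its responses were -1.15 and -1.20, and it was the gene of the set that was 2-fold or more lower with SCF in both lines, as were 0.234% of all genes; 0 were 2-fold higher in both, against 0.0312%. At 1.5-fold it was again the single gene lower in both lines, against 1.55% of all genes. The limma adjusted p of its mean response was 0.089. No gene had a lower one, but the Benjamini-Hochberg adjustment gives ties, and other genes share this value. The limma test of Setd3 passed after centring (adjusted p = 0.0039) and after cyclic loess (0.0171). It also passed with the highest-mean probe set of each gene (0.0068) and with a trend of the prior on the mean relative value (0.0487). Setd3 was read by 1 probe set.

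Hdac7, a class IIa deacetylase like Hdac4, was on the other side. It was at -0.22 with SCF against -0.85 without SCF in D816V cells, and at -0.34 with SCF against -0.86 without SCF in Del417-419insY cells. These responses of 0.63 and 0.52 appeared in both probe sets (0.59 and 0.67 in D816V cells, 0.73 and 0.31 in Del417-419insY cells). The mean response did not pass (limma adjusted p = 0.145), except after centring, where it did (0.037). Kdm5a was at 0.03 with SCF against 0.78 without SCF in D816V cells, and at -0.17 with SCF against 0.29 without SCF in Del417-419insY cells, responses of -0.74 and -0.46. Smarca2 had responses of -0.45 and -0.60, and Tet2 of -0.49 and -0.45. In these 3 genes both lines were lower with SCF.

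For Chd8, Jmjd1c and Chd4 the probe sets of a gene differed in size or sign. Chd8 was at -0.05 with SCF against 0.44 without SCF in D816V cells, and at -0.22 with SCF against 0.51 without SCF in Del417-419insY cells. Jmjd1c was at -0.47 with SCF against 0.13 without SCF in D816V cells, and at -0.03 with SCF against 0.53 without SCF in Del417-419insY cells. Chd4 was at 0.01 with SCF against 0.52 without SCF in D816V cells, and at -0.02 with SCF against 0.60 without SCF in Del417-419insY cells. All 3 gene means were lower with SCF in both lines. The gene means were -0.49 and -0.73 for Chd8, a remodeller that binds beta-catenin, -0.60 and -0.56 for Jmjd1c, and -0.51 and -0.62 for Chd4, in D816V and Del417-419insY cells. One probe set of Chd8 had responses of -1.34 and -1.82, while the other had 0.36 and 0.36. With the highest-mean probe set alone the mean response of Chd8 was -1.58 and passed (limma adjusted p = 0.0054). That choice follows values relative to each probe set's own zero, so it gives no reason to prefer either probe set. One of the 3 probe sets of Jmjd1c had -1.50 and -1.62, and the others lay between -0.30 and 0.16. The probe sets of Chd4 gave -0.74 and -0.92, and -0.28 and -0.32. A response of the gene as a whole cannot be read from such means for Chd8 and Jmjd1c.

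**Figure D5:**
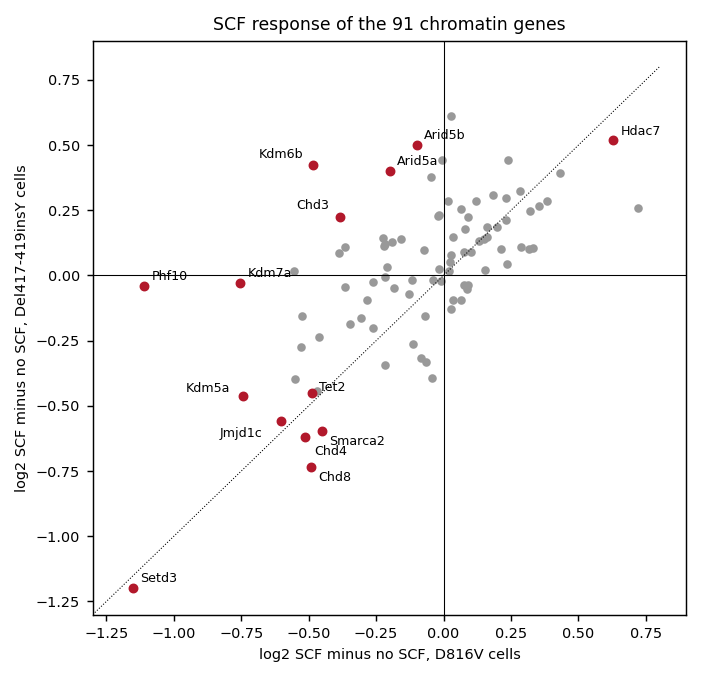
Log2 SCF response (SCF minus no SCF) in D816V cells (x) against Del417-419insY cells (y) for the 91 chromatin genes, with the dotted line at equal responses. Setd3 lies near the line at the lower left and Hdac7 at the upper right, while Phf10, Kdm7a, Kdm6b, Chd3, Arid5a and Arid5b lie above the line, with lower values in D816V than in Del417-419insY cells.

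The lines differed most in their responses for 6 genes, and in all 6 the D816V response was the lower one. Phf10 had responses of -1.11 in D816V and -0.04 in Del417-419insY cells, and Kdm7a of -0.75 and -0.03. Both probe sets of Phf10 were lower with SCF in D816V cells (-1.51 and -0.71), but in Del417-419insY cells they were at -0.35 and 0.27. Kdm6b was at -0.32 with SCF against 0.17 without SCF in D816V cells, and at 0.68 with SCF against 0.25 without SCF in Del417-419insY cells. Chd3 was at -0.53 with SCF against -0.15 without SCF in D816V cells, and at 0.23 with SCF against 0.00 without SCF in Del417-419insY cells, and Arid5b at 0.32 with SCF against 0.42 without SCF in D816V cells, and at 0.50 with SCF against -0.01 without SCF in Del417-419insY cells. Chd3, Arid5b and Arid5a had responses of -0.38, -0.10 and -0.20 in D816V cells and 0.23, 0.50 and 0.40 in Del417-419insY cells. Over the 91 genes the D816V minus Del417-419insY difference was more negative with SCF than without in 55, a share of 60.4% against 58.2% of all genes. A difference between the responses is the residual of the fit and could not be tested.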

How the data were processed

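RNA of 4 EML cultures, 1 per group, was measured on Affymetrix mouse arrays read out with the maker's software, per the series' design text. The deposited log2 values were made by the authors with RMA, per the submitters' processing notes; no source states the log base, and log2 is taken because RMA gives it. The zero of each probe set, and the filter that left 10861 probe sets, are not given in the sources used here. Brightness was not used here, so signal over background could not be examined, and the number of arrays limits precision.

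Of these probe sets 9633 had 1 gene symbol, 264 several and 964 none. Gene values are means over probe sets with 1 symbol; 4 probe sets that match the family prefixes but carry several symbols were left out. Each array was mapped to its group by its title. The fit (lmFit, then eBayes, of limma 3.58.1 under R 4.3.3) had genotype and SCF as additive terms (Benjamini-Hochberg over 6404 genes; prior 4.1 degrees of freedom, SD 0.127). The fit was tested on simulated data. Differences were also counted at 2-fold, with 1.5-fold as an alternative; scalings, probe set summaries, updated symbols, eBayes settings, a 25th percentile filter and fits with 1 term were the other alternatives. The trend in the prior and the choice of the highest-mean probe set used the deposited relative values, so neither reflects brightness. The 24 genes named first have the largest mean genotype difference, 8 the largest SCF responses of 1 sign in both lines, ranked by the smaller of both and 6 the largest difference between responses; the top gene of each role is named too. The members and lists were chosen with earlier results of these data known.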

Additional observations from a re-analysis of the deposited data

Results flagged for a closer look

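In 4 of the 6 genes whose SCF responses differed most between the lines, the single D816V comparison and the single Del417-419insY comparison went opposite ways. The response in D816V minus that in Del417-419insY cells was -0.908 for Kdm6b, -0.610 for Chd3, -0.601 for Arid5b and -0.599 for Arid5a (log2). These differences were not tested, since each group is a single array. Each of the 4 genes had 1 probe set, and over all genes the lines went opposite ways in 34.3%.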

How the results depend on the processing

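No paired analysis was possible because each group holds 1 array, and for the same reason no replicate could be left out. Background correction and a slide block were not run, since the values are already processed. A median is said to move here when it shifts by 0.1 or more. Genotype calls were 9 higher after centring, 9 after cyclic loess and 7 after quantile normalization, and 23 in all (1 higher, 22 lower) without the SCF term. SCF calls were 2 after centring, 1 after loess, 1 with a trend in the prior and 5 when the probe set of highest mean stood for its gene. The median genotype difference was -0.22, -0.20 and -0.24 after centring, loess and quantile normalization, with SCF -0.21, -0.24 and -0.23, and without SCF -0.15 after loess. The median SCF response in D816V cells changed sign to 0.056, 0.069 and 0.079. After loess 5 genes were 2-fold lower in D816V with SCF, 2 in both conditions and 1 with SCF in D816V cells; quantile normalization gave 0 for the last. The highest-mean probe set gave 3 genes 2-fold lower with SCF in Del417-419insY cells. At 1.5-fold, 3 genes were higher and 28 lower in D816V with SCF, 2 and 14 without, 1 and 12 in both, and with SCF 2 and 5 in D816V and 1 and 4 in Del417-419insY cells. Of 140 recomputed counts and medians 105 stayed the same. Of 319 recomputed values of named genes 300 kept direction and call and 0 reversed. Calls of Setdb1, Sirt5, Smarca2, Smarcc1 and Ing5 were lost without the SCF term, those of Ing5 and Phf6 after loess, and that of Phf6 with the highest-mean probe set. Elsewhere the cause was not tested.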

Other observations

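The spread between the probe sets of 1 gene was looked at after the values were seen. Among the 44 chromatin genes with more than 1 probe set, the mean SCF responses of the probe sets of a gene differed by 1 log2 unit or more in 2, Chd8 (span 1.94) and Jmjd1c (span 1.64), a share of 4.55% against 3.63% of the 2201 genes with several probe sets. Cbx5 followed with a span of 0.96, from -0.89 to 0.07. For the genotype difference no chromatin gene had such a span, against 2.86% of the 2201 genes, and Cbx5, Chd8 and Jmjd1c had spans of 0.68, 0.65 and 0.31. Setd3, with the largest SCF response, has 1 probe set and cannot be checked in this way.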
